A study of Mus musculus with 48 samples.

Results

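The comparison was between livers of mice labelled KO and livers of mice labelled WT at ZT4, the collection 4 h after the lights would have come on, and its 8 libraries (4 KO and 4 WT) were chosen by group label and time from the 48 of the series. All were polyA RNA libraries of whole liver from female C57BL/6J mice. The KO animals lacked Bmal1, whose gene symbol is Arntl, in adipocytes, and the WT animals were the controls. Every mouse of both genotypes had been kept on a 12 h light and 12 h dark schedule, then in constant darkness for 1 day, and had been fasted for 24 h before the liver was taken. The labels give neither the Cre driver nor the targeted allele, nor whether the WT mice carried either. Each library came from its own mouse. The KO mice were 73.75, 69.75, 58.5 and 58.5 weeks old as replicates 1 to 4, and the WT mice of the same numbers had the same ages. They weighed 25.75 ± 1.6 g (KO) and 23.98 ± 1.54 g (WT; SD, n = 4 each), a difference of 1.775 g that did not pass an exact two-sided permutation test (p = 0.171; the smallest p that 4 against 4 allows is 0.0286).

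Bmal1 is a transcription factor that pairs with CLOCK or NPAS2 and switches on genes through E-box sequences in their promoters. Among those genes are the Per and Cry repressors, which feed back on the pair, and the REV-ERB nuclear receptors, which repress Arntl itself. The liver has its own copy of this oscillator, which is set by feeding, hormones and signals from other tissues as well as by light. In these mice the gene was targeted in fat cells, so the liver was a tissue whose own clock had not been targeted, sampled during a long fast in which adipose tissue supplies fatty acids to it. ZT4 is a phase at which Arntl is on its way down and the first of its targets are on their way up.

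The libraries held between 12908159 and 13006799 counts without the albumin gene Alb, whose deposited values were not plain counts and were left out. The table lists 22353 genes, and 13646 of them passed the filter on low counts. The 8 libraries differed in a trend with the GC content of the gene. For each library the log2 CPM (a count scaled by the size of its library) of every gene, less that gene's mean over the libraries, was set against the GC content of its transcript. The slope per 10 percentage points of GC was 0.46, -0.34, -0.77 and -0.67 on the log2 scale in KO replicates 1 to 4, against 0.50, 0.32, 0.02 and -0.02 in WT replicates 1 to 4. KO replicate 1 therefore lay with WT replicates 1 and 2, and the other 3 KO libraries lay below every WT library. The mean slope was -0.33 ± 0.56 in KO and 0.20 ± 0.25 in WT (SD, n = 4 each; exact two-sided permutation p = 0.143), and without KO replicate 1 the difference was -0.80. KO replicate 1 also stood apart gene by gene: its log2 CPM correlated with those of the other KO libraries at r of 0.92 to 0.95 across genes, against 0.97 to 0.98 with the 4 WT libraries and 0.97 to 0.99 among the other 3 KO libraries. The other 3 KO libraries correlated with the WT libraries at r of 0.91 to 0.97. The highest correlation of KO replicate 1 was with WT replicate 1 (r = 0.98), from a mouse of the same age. In both genotypes replicates 1 and 2, from the older mice, had higher GC slopes than replicates 3 and 4. By its GC slope and its profile across genes KO replicate 1 was thus closer to the WT libraries than to the KO libraries it is labelled with. Whether it carries the right label was not tested, and a wrong label would change every KO minus WT value that includes it. Across 13316 genes with a GC value, the KO minus WT log2 difference correlated with GC content at r = -0.55, a description across genes that share the same 8 libraries. Genes below 45% GC had a median difference of 0.44 and genes above 55% GC one of -0.40. With the GC trend of each library removed, the correlation was -0.06. Values with the GC trend removed, or with KO replicate 1 left out, stand beside many of the results below; how far the GC trend or that library makes up any single difference was not tested.

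**Figure D1:**
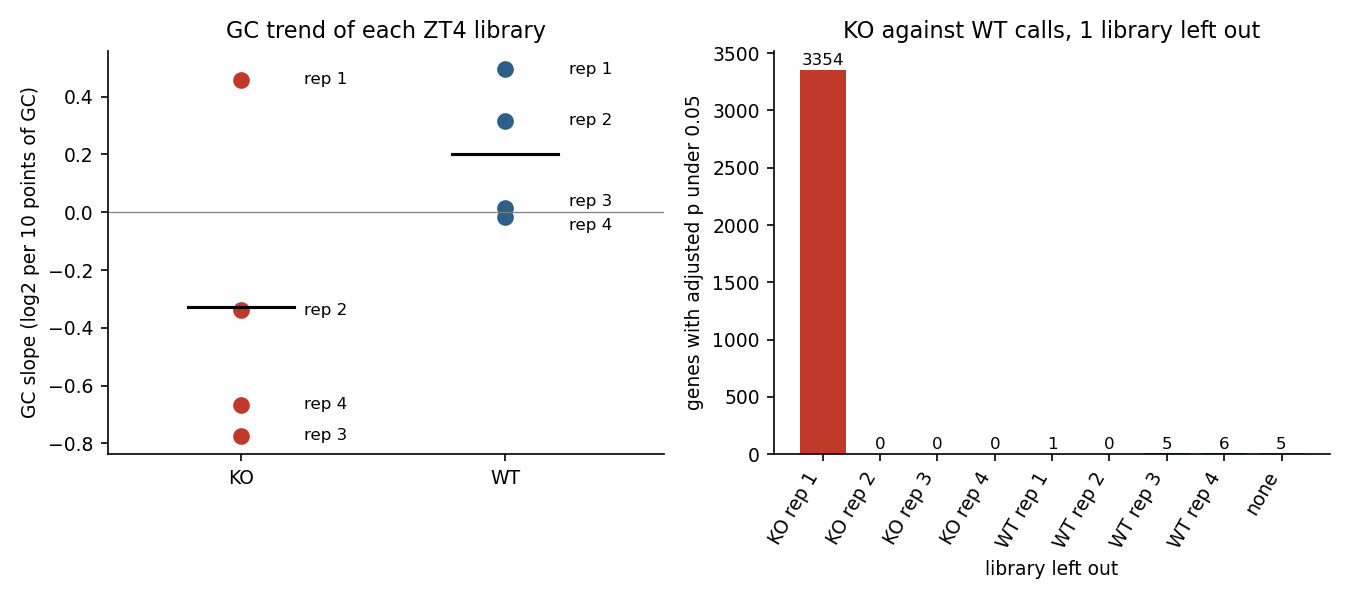
Left, the slope of log2 expression on gene GC content (log2 per 10 points of GC) in each ZT4 library, 1 point a mouse, with the group mean as a line; KO replicate 1 (0.46) lies with the WT libraries and the other KO libraries lie between -0.77 and -0.34. Right, the number of genes with an adjusted p under 0.05 when 1 library is left out (none, 5 genes; KO replicate 1, 3354 genes; any other library, 0 to 6 genes).

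At ZT4, 5 genes fell in KO liver and 0 rose (edgeR quasi-likelihood test over the 13646 genes, Benjamini-Hochberg adjusted p under 0.05; 0.0366% of the genes tested). The 5 were Dusp1, Rec8, Tmem171, Map4k4 and Wfikkn1. At an unadjusted p under 0.05, 1842 genes were higher (13.5%) and 1333 lower (9.77%). These shares are the background for every gene group below, as are the 520 genes (3.81%) with all 4 KO libraries above all 4 WT libraries and the 543 (3.98%) with all 4 below. For the same contrast a different test, the Wald test of DESeq2, called 114 genes higher and 78 lower. With the replicate number as a block, edgeR called 2 genes over the 48 libraries and 726 over the ZT4 libraries alone. The unadjusted count at ZT4, 3175 genes (23.3%), compares with 248 (1.82%) at ZT8 and 907 (6.65%) at ZT16, the lowest and highest of the other 5 times. Without KO replicate 1 the calls became 1657 higher (12.2%) and 1697 lower (12.4%). Of the calls below 45% GC, 1102 were then higher and 19 lower, whereas above 55% GC 27 were higher and 848 lower. With that library left out and the GC trend removed, 770 genes were called higher (5.65%) and 858 lower (6.29%), and 1229 genes were shared by the 2 sets of calls, 36.6% of the first and 75.5% of the second. All 5 genes called with every library were in both sets. No gene was called without KO replicate 2, 3 or 4 or WT replicate 2 (edgeR; 1344 to 2631 genes at an unadjusted p under 0.05), and 1 gene was called without WT replicate 1. With every library kept and the GC trend removed, 1484 genes were higher (10.9%) and 1294 lower (9.48%) at an unadjusted p under 0.05, 20.4% together.

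Dusp1 encodes a phosphatase that switches off the stress-activated MAP kinases, and it is induced within minutes by growth factors, stress and glucocorticoids. It had 18.6, 9.98, 8.05 and 8.74 CPM in the KO livers, against 43.3, 137, 34 and 25.7 CPM in the WT livers. The groups did not overlap, and WT replicate 2 was the highest. The gene (chr17:26642535-26645464, mm9) fell by 2.4 on the log2 scale (SE 0.44, edgeR adjusted p = 0.0361), and by 2.14 with the GC trend removed. Over the libraries of the other 5 times Dusp1 was also lower in KO, by a mean log2 difference of -1.49 (SE 0.19, edgeR adjusted p = 1.6e-05). The difference at ZT4 did not pass the test against that mean (edgeR adjusted p = 0.388). Libraries of the other times gave none of the ZT4 counts, but they shared the fit that set the spread behind the ZT4 SE and adjusted p. With the ZT4 libraries alone 0 genes were called. The ZT4 call was lost without KO replicate 2, 3 or 4 or WT replicate 2, with adjusted p between 0.133 and 0.302, and over 19 alternatives it ranged from 0.000133 to 0.302 and passed in 12.

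The 250 bases upstream of the Dusp1 start are shown because a cyclic AMP response element, the binding letters of the CREB family that fasting hormones act through, lies in them (RefSeq, GRCm38.p6, chr17:26508473-26508722, minus strand, 5′ to 3′). The capitals mark TGACGTCA, which occurs on 1 or the other strand in 1.55% of 32851 RefSeq promoters of the same length. The window also holds 1 match to the E-box letters CACGTG, in lower case here, which occur in 6.02% of those promoters; neither match is a measured binding site.
Dusp1: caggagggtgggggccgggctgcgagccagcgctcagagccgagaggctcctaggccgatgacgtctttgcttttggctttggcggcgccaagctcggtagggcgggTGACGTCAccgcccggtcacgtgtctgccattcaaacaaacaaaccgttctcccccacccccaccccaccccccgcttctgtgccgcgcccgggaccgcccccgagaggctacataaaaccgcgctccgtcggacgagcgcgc

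Rec8 encodes a cohesin subunit known from meiosis. It had 1.09, 0.483, 0.575 and 0.155 CPM in the KO livers, against 6.14, 3.52, 2.84 and 1.58 CPM in the WT livers, so it was a low transcript in all 8 mice and its groups did not overlap. It fell by 2.59 (log2, or 2.22 with the GC trend removed; SE 0.51, edgeR adjusted p = 0.0439; chr14:56236874-56244232, mm9) and was lower in KO over the other 5 times too, by -1.66 (SE 0.25, adjusted p = 8.9e-05). Map4k4, a kinase that feeds into the JNK pathway, showed the tightest groups of the 5. It had 15.2, 10.9, 10.4 and 10.7 CPM in the KO livers, against 24.8, 27.4, 22.4 and 25.8 CPM in the WT livers. KO replicate 1 was the highest of the KO livers and still below every WT liver. Map4k4 fell by 1.09 (SE 0.22, adjusted p = 0.0439; chr1:39957758-40083155, mm9), and by 0.88 with the GC trend removed. Over the other 5 times its mean difference was 0.08 (SE 0.10), and the test of ZT4 against those times gave an edgeR adjusted p of 0.109.

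Wfikkn1, whose secreted product binds myostatin, had 0.312, 0.241, 0.247 and 0.155 CPM in the KO livers, against 2.45, 2.45, 0.897 and 0.789 CPM in the WT livers. It fell by 2.74 (log2, or 2.26 with the GC trend removed; SE 0.56, edgeR adjusted p = 0.0439; chr17:26014573-26017797, mm9). Tmem171, a gene for a membrane protein, had no counts in any KO liver. In the WT livers it had 0.997, 0.611, 0.224 and 0.359 CPM, 29 counts in all. Against the 3 counts over the group that a count of 0 allows (0.0596 CPM), it was at least 9.11-fold lower in KO than the 0.543 CPM of the WT group, a floor that covers counting error only (adjusted p = 0.0439; chr13:99456190-99464789, mm9). With the GC trend removed 2 of the 5 calls remained, Dusp1 and Rec8. Each of the other 4 calls was lost in some alternatives: Rec8 passed in 10 of 19 (adjusted p 0.00318 to 0.302), Wfikkn1 in 7 of 19 (0.0108 to 0.302), Map4k4 in 5 of 19 (0.00343 to 0.349) and Tmem171 in 5 of 17 (0.012 to 0.302). All were lost when KO replicate 2, 3 or 4 or WT replicate 2 was left out, as no gene was then called.

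**Figure D2:**
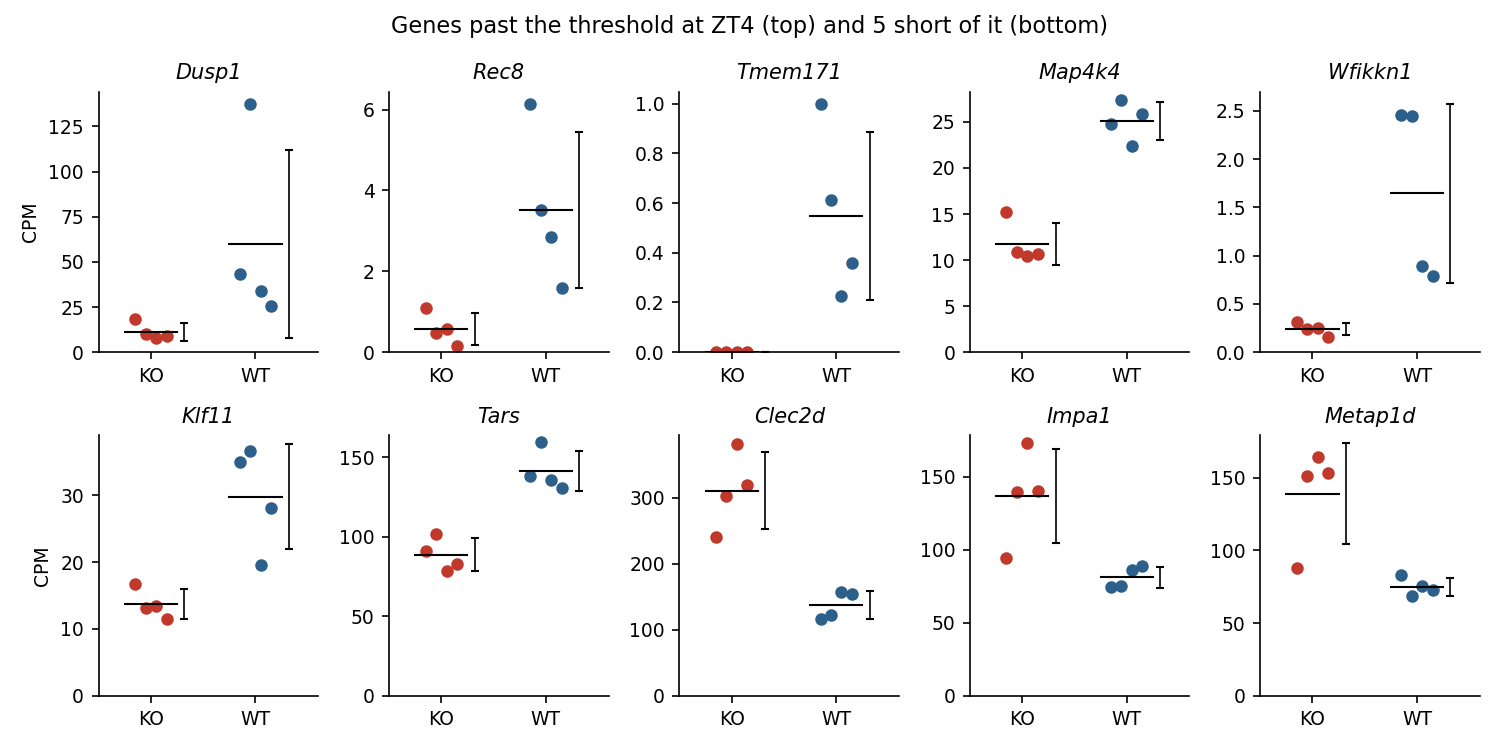
CPM at ZT4 in each mouse (points), with the group mean (horizontal line) and SD (bar at the right). The top row holds the 5 genes that fell in KO. The bottom row holds 5 genes picked from those with the next smallest p, none of which passed. Olfr1033 and Caprin2, with a smaller p, are not drawn. In all 10 genes drawn the 4 KO and the 4 WT livers do not overlap.

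The genes next in order of p came just short of the threshold. Klf11, a Krüppel-like transcription factor, had 16.8, 13.1, 13.4 and 11.4 CPM in the KO livers, against 35.1, 36.7, 19.5 and 28.1 CPM in the WT livers (log2 difference -1.12, SE 0.25, edgeR adjusted p = 0.0751). Tars, the cytosolic threonyl-tRNA synthetase, had 91.0, 102, 78.3 and 82.8 CPM in KO livers, against 138, 160, 136 and 131 CPM in WT livers. Its log2 difference was -0.67 (SE 0.15, adjusted p = 0.0784) and, with the GC trend removed, -0.76 (adjusted p = 0.0365; 0.00959 to 0.349 over 19 alternatives). Klf11 differed by -1.09 with the GC trend removed. In both genes every KO liver was below every WT liver.
On the other side, Clec2d, a lectin-like membrane protein that natural killer cells recognise, had 240, 304, 382 and 320 CPM in KO livers, against 117, 122, 158 and 154 CPM in WT livers (log2 difference 1.18, SE 0.27, edgeR adjusted p = 0.0751). Metap1d, a mitochondrial methionine aminopeptidase, had 87.8, 151, 165 and 153 CPM in KO livers, against 83.4, 68.5, 75.4 and 72.5 CPM in WT livers (0.89, SE 0.20). Impa1, an inositol phosphatase, had 94.5, 140, 173 and 141 CPM in KO livers, against 74.3, 75.4, 86.4 and 88.6 CPM in WT livers (0.76, SE 0.16). KO replicate 1 was the lowest of the KO livers in these 3 genes, and above every WT liver. With the GC trend removed the differences were 0.97 for Clec2d, 0.63 for Metap1d and 0.51 for Impa1.
Of the remaining genes with the smallest p, Olfr1033 (2.0), Keg1 (1.88), Gm12354 (1.47), I830012O16Rik (1.47), Trim12c (1.36), Caprin2 (1.31), Ttc32 (1.15), 3830406C13Rik (1.08) and Zc3hav1 (0.55) had positive log2 differences, and Tubb2a (-1.16) and Ptk2 (-0.62) negative ones. With the GC trend removed these were 1.10, 1.22, 1.23, 1.31, 0.89, 0.68, 0.68, 0.56 and 0.45, and -0.82 and -0.66, in the same order. Zc3hav1, a zinc-finger protein that binds viral RNA, differed little among mice of 1 group, with 60.5, 66.7, 63.5 and 56.7 CPM in KO livers, against 43.6, 41.6, 43.1 and 40.8 CPM in WT livers.

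The gene targeted in adipocytes was read in whole liver, where its level does not check the labels. Arntl had 12.6, 10.5, 6.08 and 8.97 CPM in the KO livers, against 20.2, 34.2, 12.4 and 17.6 CPM in the WT livers. KO replicate 1 was just above WT replicate 3, and the groups otherwise did not overlap. The log2 difference was -1.14 (SE 0.39; also -1.14 with the GC trend removed) and did not pass (edgeR adjusted p = 0.132; 0.0302 to 0.485 over 19 alternatives, past the threshold in 3). At the flanking times the groups were closer: Arntl averaged 32.4 ± 4.0 CPM in KO and 37 ± 5.9 CPM in WT at ZT0, and 3.68 ± 2.14 CPM in KO and 2.14 ± 0.71 CPM in WT at ZT8 (SD, n = 4 each).

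Of 24 core clock genes tested at ZT4, 0 were called; 3 were higher and 6 lower at an unadjusted p under 0.05, against 13.5% and 9.77% of all genes, and the median log2 difference was -0.25 (-0.14 with the GC trend removed; -0.005 over all genes). Without KO replicate 1, 3 were called higher and 9 lower, against 12.2% and 12.4% of all genes in that setting. Per3 and Nr1d2 were among the higher ones, and the 6 lower ones were Arntl, Bhlhe40, Npas2, Csnk1e, Nfil3 and Gm129.
Among the activators, Npas2, the partner that can replace CLOCK, had 4.05, 3.54, 0.822 and 1.70 CPM in KO livers, against 3.45, 14.6, 2.54 and 4.02 CPM in WT livers (log2 difference -1.28, SE 0.51, edgeR adjusted p = 0.155; -1.11 with the GC trend removed). WT replicate 2 was far above the other WT livers, and without it the Npas2 difference was -0.40. Clock had 28.5, 59.3, 65.9 and 74.0 CPM in KO livers, against 26.6, 44.9, 40.2 and 42 CPM in WT livers (0.57, and 0.08 with the GC trend removed). The groups overlapped in both genes.
Among the repressors, Per3 had 17.9, 18.6, 58.4 and 37.9 CPM in KO livers, against 16.8, 6.50, 27.2 and 12.0 CPM in WT livers (1.09, SE 0.34, adjusted p = 0.122). The difference was larger with the GC trend removed (1.38). Per1 had a log2 difference of -1.22, Per2 one of 0.50, Cry1 one of -0.43 and Cry2 one of -0.67, with overlapping groups in each. Bhlhe40, which competes for E-boxes, had 62.1, 31.7, 33.9 and 30.6 CPM in KO livers, against 164, 103, 51.5 and 54.7 CPM in WT livers (-1.23, SE 0.39, adjusted p = 0.122), and only KO replicate 1 reached into the WT range. Gm129, the gene of another inhibitor of the BMAL1 pair, had 3.35, 1.29, 1.73 and 2.94 CPM in KO livers, against 17.6, 4.59, 3.29 and 0.933 CPM in WT livers. Its log2 difference of -1.50 rested on WT replicate 1 and was -0.33 without it. Bhlhe41, also a low transcript, differed by -0.06.

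The genes of the REV-ERB receptors had differences of opposite sign. Nr1d1 had 116, 11.7, 5.18 and 16.9 CPM in KO livers, against 186, 79.7, 55 and 34.3 CPM in WT livers. The log2 difference was -1.25 (SE 0.80, edgeR adjusted p = 0.324) with KO replicate 1 and -2.97 (adjusted p = 0.0191) without it; over 19 alternatives adjusted p ran from 0.0191 to 0.856. With all libraries kept, GC removal left the Nr1d1 difference at -1.127. Nr1d2 had 68.2, 93.4, 198 and 182 CPM in KO livers, against 65.0, 65.1, 75.2 and 68.5 CPM in WT livers, and its log2 difference of 0.98 (SE 0.36) was 0.49 with the GC trend removed. In both genes KO replicate 1 lay inside the WT range, and the other KO livers lay outside it. Among the other regulators, Rora (0.63) and Usp2 (0.42) had positive log2 differences, and Csnk1d (-0.59), Csnk1e (-0.81) and Timeless (-0.44) negative ones. The Rora difference ran from -0.06 to 0.83 over 19 alternatives.
Among the output factors, Dbp had 73.7, 23.2, 67.8 and 76.8 CPM in KO livers, against 82.8, 11.6, 47.9 and 13.2 CPM in WT livers (log2 difference 0.63, SE 0.50). Tef (0.39) and Hlf (0.07) differed less, and Nfil3, which represses the sites that Dbp activates, had a log2 difference of -0.97 (SE 0.43). Without KO replicate 1 and with the GC trend removed, Per2, Per3, Dbp and Tef were called higher, and Arntl, Bhlhe40, Nr1d1, Cry2 and Csnk1d lower. Of all genes, 5.65% were called higher and 6.29% lower in that setting.

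**Figure D3:**
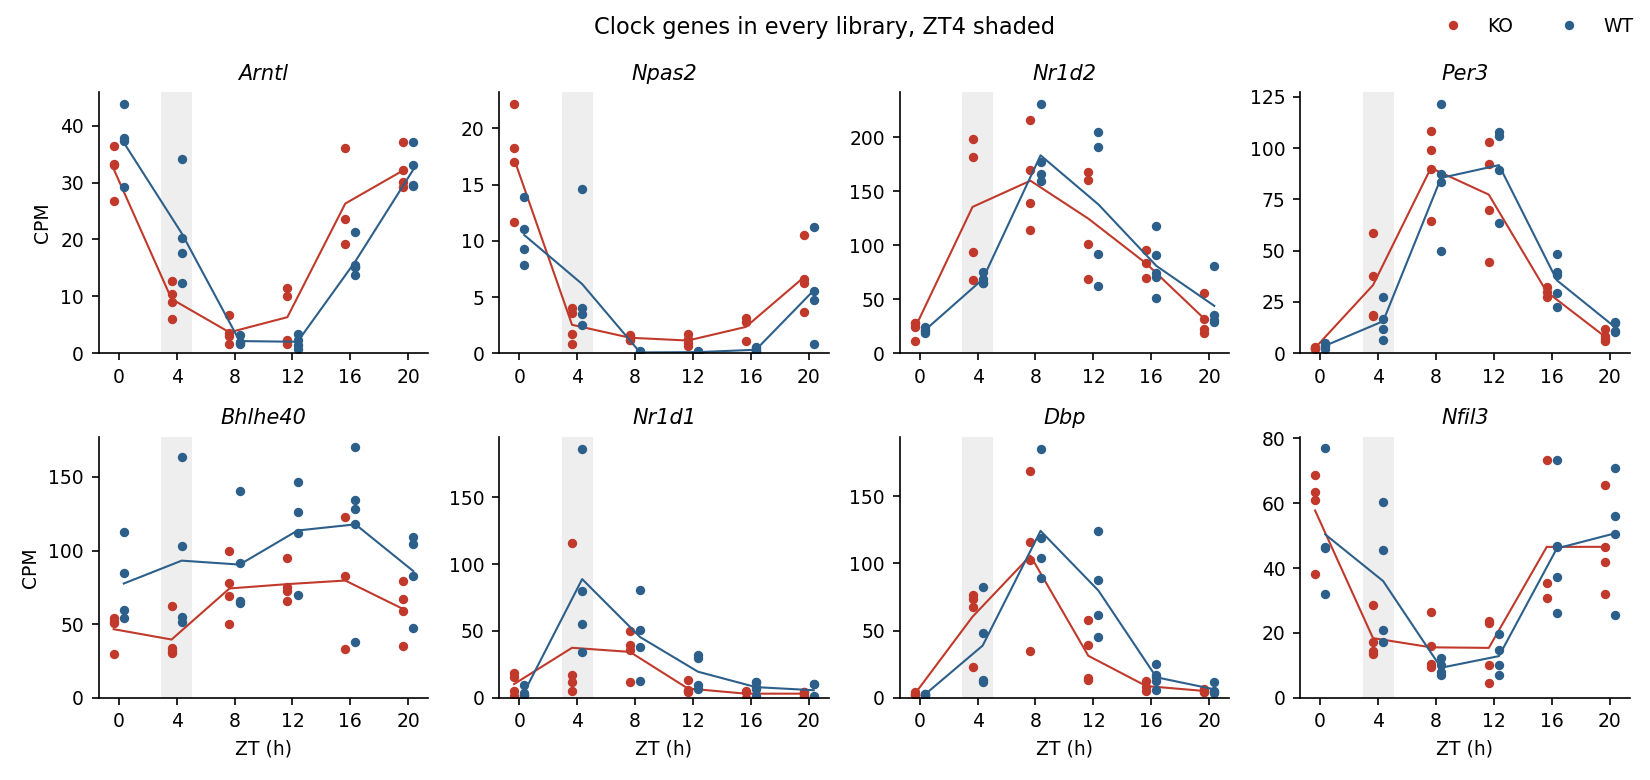
CPM of 8 clock genes in every library against collection time (ZT, h), KO in red and WT in blue, 1 point a mouse and a line through the group means, with ZT4 shaded. At ZT4 Arntl lies lower in KO (6.08 to 12.6 CPM) than in WT (12.4 to 34.2 CPM), and Nr1d1 at ZT4 spreads over 5.18 to 116 CPM in KO and 34.3 to 186 CPM in WT.

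1 gene passed the test of the ZT4 difference against the mean difference at the other 5 times, Npas2 (0.00733% of the genes tested, called lower; 0 were called higher, 1021 (7.48%) were higher and 734 (5.38%) lower at an unadjusted p under 0.05, 12.9% together, and DESeq2 called 4 genes). Npas2 had a ZT4 difference of -1.28 and a mean difference of 2.26 at the other times, so that ZT4 minus the others was -3.54 (SE 0.61, edgeR adjusted p = 0.0114). At ZT8 the KO livers averaged 1.38 ± 0.21 CPM and the WT livers 0.0742 ± 0.064 CPM, and at ZT12 1.131 ± 0.44 CPM in KO and 0.0992 ± 0.076 CPM in WT (SD, n = 4 each). At ZT0 they averaged 17.3 ± 4.3 CPM in KO and 10.5 ± 2.6 CPM in WT, and at ZT20 6.74 ± 2.83 CPM in KO and 5.59 ± 4.29 CPM in WT (SD, n = 4 each). The mean difference at the other times was thus made mostly by ZT8, ZT12 and ZT16 (log2 differences of 4.07, 3.36 and 2.89), where no WT liver passed 0.586 CPM, while it was 0.72 at ZT0 and 0.27 at ZT20. Without WT replicate 2 of ZT4 the Npas2 contrast was -2.66. The call was lost without KO replicate 3 (0.108), KO replicate 4 (0.114) or WT replicate 2 (0.245), and over its alternatives adjusted p ran from 5.72e-05 to 0.245.

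Of 29 interferon response genes tested, 0 were called, 15 were higher and 0 lower at an unadjusted p under 0.05 (13.5% and 9.77% of all genes), and in 13 every KO liver was above every WT liver (3.81% of all genes). The median log2 difference was 0.59, against -0.005 over all genes; it was 0.65 with the GC trend removed, 0.52 without KO replicate 1, and between 0.42 and 0.69 over 19 alternatives. Without KO replicate 1, 12 of the 29 were called higher and 0 lower, against 12.2% and 12.4% of all genes. With the GC trend removed as well, 11 were called higher and 0 lower, against 5.65% and 6.29% of all genes. Interferons are antiviral signals that act through a receptor and STAT transcription factors and switch on genes carrying an interferon-stimulated response element. The summed level of the list was 1138, 1357, 1850 and 1683 CPM in the KO livers, against 713, 519, 895 and 997 CPM in the WT livers, without overlap.

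The promoters of 4 of the members with the smallest p are shown because they hold that element. Each is the 250 bases upstream of the start in RefSeq (GRCm38.p6), on the plus strand: Ifit1 at chr19:34640639-34640888, Gbp2 at chr3:142620413-142620662, Ifit3 at chr19:34583279-34583528 and Gbp7 at chr3:142530086-142530335. The element was searched as a pair of GAAA blocks with any 2 bases between them, on either strand, and the capitals mark the matches; a match on the other strand reads TTTC in these letters.
Ifit1: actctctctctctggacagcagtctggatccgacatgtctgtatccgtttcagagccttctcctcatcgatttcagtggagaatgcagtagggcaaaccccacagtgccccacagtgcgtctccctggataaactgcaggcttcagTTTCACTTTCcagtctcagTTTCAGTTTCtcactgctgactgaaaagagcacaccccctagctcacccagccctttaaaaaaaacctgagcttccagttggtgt
Gbp2: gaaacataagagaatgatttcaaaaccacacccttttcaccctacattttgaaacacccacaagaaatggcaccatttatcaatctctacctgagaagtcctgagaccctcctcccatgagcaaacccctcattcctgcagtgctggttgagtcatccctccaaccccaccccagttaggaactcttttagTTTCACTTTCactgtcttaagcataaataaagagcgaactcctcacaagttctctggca
Ifit3: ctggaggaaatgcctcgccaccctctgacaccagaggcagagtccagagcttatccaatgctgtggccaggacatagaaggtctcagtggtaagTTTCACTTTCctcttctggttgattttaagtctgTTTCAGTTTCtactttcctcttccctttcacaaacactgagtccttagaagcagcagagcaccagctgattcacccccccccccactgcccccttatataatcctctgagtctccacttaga
Gbp7: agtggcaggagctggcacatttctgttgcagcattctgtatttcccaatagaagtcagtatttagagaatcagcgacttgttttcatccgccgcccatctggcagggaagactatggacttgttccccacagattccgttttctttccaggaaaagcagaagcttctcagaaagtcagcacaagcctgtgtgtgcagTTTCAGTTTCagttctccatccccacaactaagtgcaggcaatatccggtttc
These letters were in 2.98% of 32851 RefSeq promoters of that length, counted per promoter entry. Of the 29 members, 21 had a promoter in the table and 12 of them (57.1%) held the letters, counted per gene if any of its entries matched. They were in 8 of the 10 members with an unadjusted p under 0.05 and a promoter, and in 4 of the other 11. The share per entry and the share per gene are in unlike units, and the genes were listed for the interferon response. An excess of the letters was not tested. Such a match describes the window and is not a measured binding site.

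Ifit1, which binds viral RNA and blocks its translation, had 26.2, 33.1, 40.6 and 42.7 CPM in KO livers, against 6.98, 5.50, 12.4 and 17.9 CPM in WT livers (log2 difference 1.73, SE 0.41, edgeR adjusted p = 0.0875; 1.43 with the GC trend removed). Ifit3, of the same family, had 22.9, 27.1, 37.7 and 46.9 CPM in KO livers, against 8.90, 5.88, 14.7 and 20.7 CPM in WT livers (1.42, SE 0.38). Isg15, a ubiquitin-like protein attached to other proteins in the response, had 18.9, 16.5, 16.4 and 21.3 CPM in KO livers, against 7.52, 5.04, 8.15 and 11 CPM in WT livers (1.205, SE 0.33). No KO liver fell into the WT range in these 3 genes, and WT replicate 2 was the lowest of all in each.
The guanylate-binding proteins attack membranes of intracellular pathogens. Gbp2 had 15.3, 30.5, 15.8 and 18.7 CPM in KO livers, against 6.83, 2.67, 8.60 and 10.1 CPM in WT livers (1.51, SE 0.36, adjusted p = 0.0875). Gbp10 had 10.4, 8.93, 19.6 and 17.5 CPM in KO livers, against 1.30, 0.535, 4.19 and 3.87 CPM in WT livers (2.50, SE 0.62, adjusted p = 0.0889). Gbp7 (1.92), Gbp3 (1.38) and Gbp6 (1.33) had positive differences too; Gbp6 and Gbp10 are close copies of each other, whose reads the counting may have shared out uncertainly.
Of the immunity-related GTPases, Igtp had 123, 122, 121 and 127 CPM in KO livers, against 59.8, 31.6, 78.7 and 66.2 CPM in WT livers (1.06, SE 0.39). Irgm1 had 92.6, 119, 88.1 and 104 CPM in KO livers, against 52.5, 45.5, 69.998 and 66.7 CPM in WT livers (0.78, SE 0.23). Iigp1 was the most abundant member, with 222 to 991 CPM in KO livers and 140 to 292 CPM in WT livers, and its log2 difference of 1.52 was 0.88 with the GC trend removed. Usp18 (0.78), Ifi44 (1.36) and the immunoproteasome subunit Psmb8 (0.56) had every KO liver above every WT liver. Members that did not reach an unadjusted p of 0.05 were Irf9 (0.35), Irf1 (0.32), Irgm2 (0.44), Ifit2 (0.61), Mx2 (0.35), Irf7 (0.39), Rsad2 (0.28), Mx1 (0.35) and Oas1a (0.17), and, below 0, Ddx58 (-0.25), Oas2 (-0.21), Oasl1 (-0.16), Oasl2 (-0.10) and Stat2 (-0.05).
Markers of macrophages and lymphocytes, cells that also make this response, overlapped between the groups. The 15 Kupffer cell and macrophage markers summed to 325 to 558 CPM in KO livers and 182 to 607 CPM in WT livers, and the 15 lymphocyte markers to 10.3 to 32.9 CPM in KO livers and 12.2 to 20.8 CPM in WT livers; what these cells add to the interferon values was not tested. Over the other 5 times the median difference of the interferon list was 0.21, with 10 of the 29 genes higher and 0 lower at an unadjusted p under 0.05. Of all genes tested 3.95% were higher and 5.28% lower over those times, 9.23% together.

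**Figure D4:**
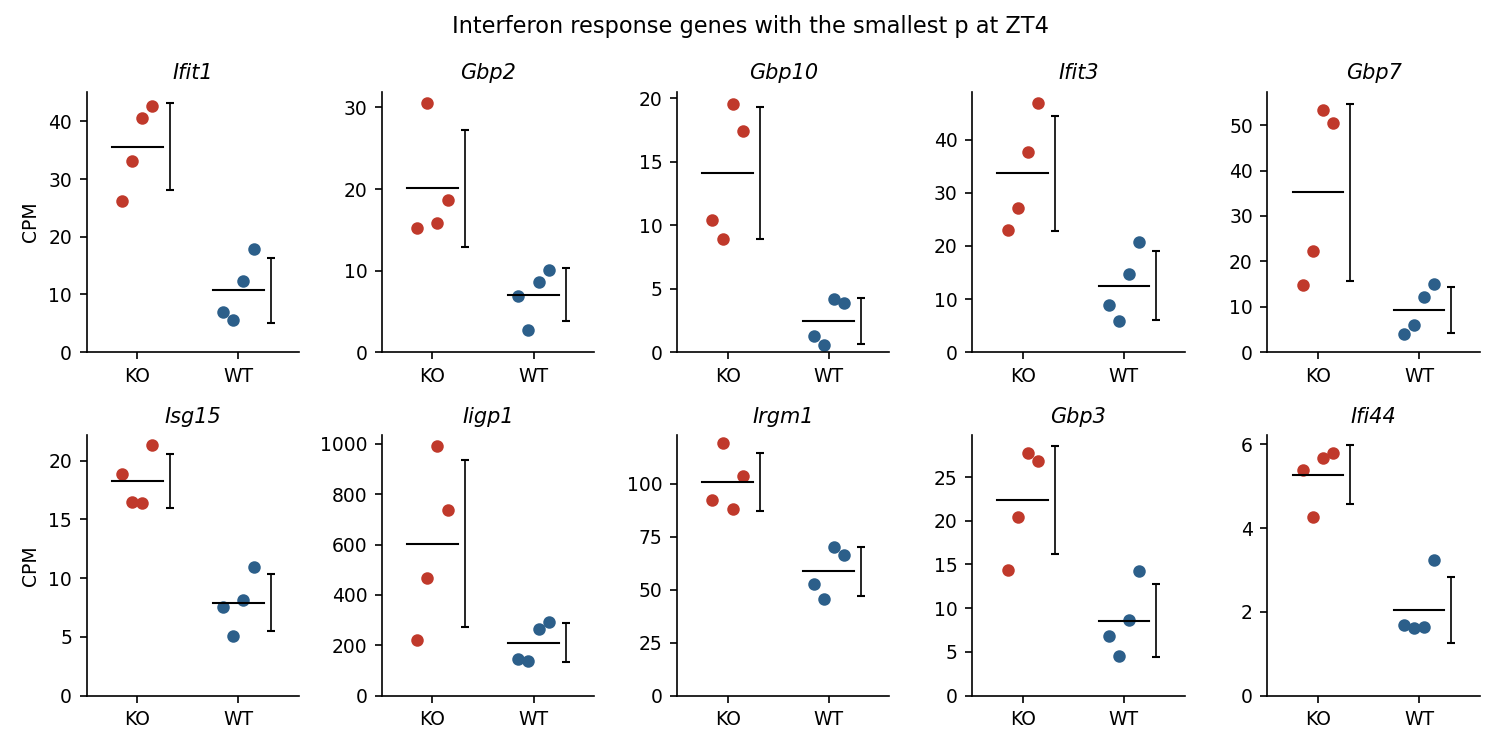
CPM at ZT4 in each mouse (points), with the group mean (line) and SD (bar at the right), for the 10 interferon response genes with the smallest p. In 8 of them no KO liver reaches the WT range; Gbp7 and Iigp1 overlap through KO replicate 1.

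Immediate early genes answer a stimulus within minutes, before any new protein is made. Of 19 tested, 0 were called and 8 were lower and 0 higher at an unadjusted p under 0.05, against 9.77% and 13.5% of all genes. With the GC trend removed 7 were lower and 1 higher at that level, against 9.48% and 10.9% of all genes. The median log2 difference was -0.89, and -0.39 with the GC trend removed (-1.06 to -0.24 over 19 alternatives). Jun had 8.50, 4.91, 4.36 and 3.32 CPM in KO livers, against 14, 59.6, 9.27 and 12.5 CPM in WT livers (log2 difference -2.17, SE 0.57, edgeR adjusted p = 0.0964). Fos, its partner in AP-1, had 0.156, 0.402, 0.657 and 0.541 CPM in KO livers, against 1.07, 3.133, 1.79 and 4.09 CPM in WT livers (-2.50, SE 0.66, adjusted p = 0.0964). All KO livers were below all WT livers in both, and WT replicate 2 was the highest for Jun. Zfp36, which speeds the decay of cytokine mRNAs, had 83.8, 24.5, 31.8 and 42.9 CPM in KO livers, against 161, 231, 71.9 and 47.2 CPM in WT livers (-1.48, SE 0.51). With the GC trend removed Jun differed by -1.83 and Fos by -2.30. Btg2 (-1.26), Nr4a1 (-2.26) and Junb (-0.96) were lower with overlapping groups. Over the other 5 times 10 of the 19 genes were lower and 0 higher at an unadjusted p under 0.05 (median -0.50), against 5.28% and 3.95% of all genes.
Among 9 MAP kinase phosphatases tested, Dusp1 was the 1 called, Dusp2 (1.52) was higher at an unadjusted p under 0.05, and Dusp6 (-0.13), Dusp10 (-0.23) and Dusp16 (0.19) were not past that level; the list's median was -0.30, and -0.08 with the GC trend removed. Among 15 growth arrest genes, 4 were lower and 1 higher at an unadjusted p under 0.05 (median -0.33). Gadd45g, a stress sensor that activates MAP kinases, had 20.9, 10.2, 5.51 and 3.09 CPM in KO livers, against 42.6, 181, 8.67 and 15.6 CPM in WT livers (-2.64, SE 0.85). Cdkn1a, the cell cycle inhibitor p21, had a log2 difference of -1.65 and Gadd45b one of -1.07. WT replicate 2 was the highest WT liver for all 3.
Of 14 glucocorticoid responsive genes, 2 were lower at an unadjusted p under 0.05, Dusp1 and the kinase Sgk1 (-0.86), and 0 were higher (median -0.21; -0.41 with the GC trend removed and -0.89 without KO replicate 2).

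Fasting liver makes glucose from amino acids and lactate. Of 22 genes of gluconeogenesis and amino acid breakdown, 0 were called and 4 were lower at an unadjusted p under 0.05 (median -0.31; -0.24 with the GC trend removed). G6pc, the enzyme that releases glucose from glucose 6-phosphate, had 473, 574, 196 and 143 CPM in KO livers, against 781, 1491, 573 and 790 CPM in WT livers (log2 difference -1.39, SE 0.43, edgeR adjusted p = 0.118; -1.40 with the GC trend removed). KO replicate 2 reached WT replicate 3, and the other livers did not overlap. Slc25a25, a mitochondrial ATP and phosphate carrier, had 355, 272, 106 and 90.6 CPM in KO livers, against 655, 701, 173 and 335 CPM in WT livers (-1.18, SE 0.40). Hal, which begins histidine breakdown, had 452, 327, 332 and 566 CPM in KO livers, against 628, 859, 694 and 887 CPM in WT livers (-0.87, SE 0.32). Pck1, the other rate-setting enzyme of glucose synthesis, had 3809, 2577, 1119 and 1277 CPM in KO livers, against 5608, 5400, 1515 and 2432 CPM in WT livers (-0.77, SE 0.41).

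Among 17 genes of insulin, IGF and growth hormone signalling, 0 were called, with 3 higher and 2 lower at an unadjusted p under 0.05. Irs2, the insulin receptor substrate that FOXO1 induces in fasting liver, had 3.43, 0.724, 0.164 and 0.387 CPM in KO livers, against 8.59, 12.7, 5.31 and 7.96 CPM in WT livers. No KO liver reached the WT range, and KO replicate 1 was the highest of the KO livers. The log2 difference was -2.86 (SE 0.93, edgeR adjusted p = 0.124; 0.0158 to 0.466 over 19 alternatives, past the threshold in 3), and -2.65 with the GC trend removed. Igfbp1, a binding protein whose liver transcript insulin represses, had 53.3, 68.2, 21.9 and 11.4 CPM in KO livers, against 91.1, 316, 66.0 and 126 CPM in WT livers (-1.95, SE 0.80). KO replicate 2 was just above WT replicate 3. On the growth hormone side, Igf1 had 491, 1041, 1267 and 991 CPM in KO livers, against 475, 555, 478 and 443 CPM in WT livers (0.96, SE 0.25, adjusted p = 0.0964), Socs2 had 23.4, 63.1, 108 and 62.9 CPM in KO livers, against 19.6, 27.7, 29.6 and 23.3 CPM in WT livers (1.36, SE 0.47), and the receptor Ghr had a difference of 0.73. KO replicate 1 lay within the WT range in Igf1 and Socs2. Igf1, a transcript of 38% GC, had a difference of 0.32 with the GC trend removed and Ghr one of 0.23, while Socs2 kept 1.135.
The pattern of growth hormone release sets many liver genes at different levels in the sexes, and both sex-biased lists had positive medians: the 15 female-biased genes had a median of 0.80 and the 11 male-biased genes tested one of 0.60, which were 0.60 and 0.27 with the GC trend removed, and 0.55 and 0.15 without KO replicate 1 as well. No gene of either list was called; at an unadjusted p under 0.05, 2 female-biased and 3 male-biased genes were higher and 0 lower, against 13.5% higher over all genes. Cyp3a16 had 16.8, 6.52, 136 and 12.4 CPM in KO livers, against 2.99, 0.993, 3.51 and 0.144 CPM in WT livers (4.49, SE 1.58, adjusted p = 0.132). A1bg (2.34), Cyp2c40 (0.80), Nudt7 (0.77) and Selenbp2 (0.93) overlapped between the groups.
The major urinary proteins are pheromone carriers made by the liver. Of 15 Mup genes tested, 8 were higher and 0 lower at an unadjusted p under 0.05, and all 15 had positive differences (median 1.64). With the GC trend removed 5 of the 15 were higher and 0 lower at that level, against 10.9% and 9.48% of all genes (median 1.17). Without KO replicate 1 and with the GC trend removed, 0 were called. Over the other 5 times 8 of the 15 were higher and 0 lower (median 0.73), against 3.95% and 5.28% of all genes. Mup10 had 1039, 1998, 2675 and 3211 CPM in KO livers, against 1008, 832, 419 and 605 CPM in WT livers (1.64, SE 0.53, adjusted p = 0.123). KO replicate 1 lay next to WT replicate 1, and the other livers were far apart. Mup16 (2.62) and Mup19 (2.14) overlapped through WT replicate 1. The Mup genes are nearly identical copies on 1 chromosome, so reads may be split among them and their 15 values are not separate observations; the same holds within the Cyp2 and Cyp3a families.

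Other metabolic lists held 0 calls each. Of 28 PPARalpha target and ketogenesis genes, 2 were higher and 0 lower at an unadjusted p under 0.05 (median -0.11; 0.04 with the GC trend removed). They were Fabp1, the fatty acid binding protein of hepatocytes, with 4549, 7566, 16381 and 9090 CPM in KO livers, against 2656, 3232, 5149 and 4022 CPM in WT livers (log2 difference 1.32, SE 0.44, edgeR adjusted p = 0.129), and Vnn1 (0.92). Pdk4, which holds back pyruvate oxidation in fasting, had a difference of -1.39 (SE 0.69) and ranged over 10.4 to 41.3 CPM in KO livers and 23.4 to 132 CPM in WT livers. Cpt1a (0.13), the control point of fatty acid entry into mitochondria, did not reach an unadjusted p of 0.05.
Of 21 genes of lipid uptake and droplets, 3 were higher and 3 lower (median -0.23; -0.05 with the GC trend removed). Plin4, a lipid droplet coat protein, had 78.4, 42.3, 11.5 and 24.6 CPM in KO livers, against 265, 201, 70.9 and 61.6 CPM in WT livers (-1.93, SE 0.53, adjusted p = 0.0987; -1.63 with the GC trend removed), and KO replicate 1 was inside the WT range. Cd36, a fatty acid transporter, had 315, 319, 810 and 506 CPM in KO livers, against 226, 206, 320 and 197 CPM in WT livers (1.04, and 0.40 with the GC trend removed). Lipc, hepatic lipase, had a difference of 0.82, and 0.85 with the GC trend removed.
The 25 genes of fatty acid and triglyceride synthesis had 1 lower and 0 higher (median -0.23), with Acaca at -0.45, G6pdx at -0.53 and Mlxipl at -0.53. The 23 genes of cholesterol synthesis and uptake had 2 higher and 0 lower (median 0.29, also with the GC trend removed), namely Stard4 (0.92) and Sc4mol (1.37). Sc4mol had 177, 462, 445 and 81.9 CPM in KO livers, against 149, 71.1, 166 and 64.7 CPM in WT livers, so KO replicates 2 and 3 carried the difference; Idi1 (1.19) had the same 2 highest livers, at 42.6 and 73.0 CPM.
Among 18 genes of glycolysis and glycogen, Ugp2 (0.75; 0.16 with the GC trend removed) was the 1 higher and 0 were lower (median -0.12), and Gpi1 (-0.62) and Pfkfb1 (0.48) did not reach an unadjusted p of 0.05. Of 17 bile acid genes 2 were higher and 1 lower (median 0.05): Slco1b2 (0.91), Cyp7b1 (0.60) and Cyp27a1 (-0.70). With the GC trend removed 0 were higher and 2 lower at that level, against 10.9% and 9.48% of all genes (median 0.14). Over 19 alternatives the differences ran from 0.10 to 1.16 for Slco1b2, 0.11 to 0.68 for Cyp7b1 and -0.98 to -0.38 for Cyp27a1.
Of 25 xenobiotic metabolism genes 2 were higher, Cyp2c37 (0.82) and Cyp2c38 (0.56), and 3 lower, Cyp2b10 (-1.53), Gstm1 (-1.56) and Ugt1a1 (median -0.01). With the GC trend removed 1 was higher and 2 lower (median -0.05). Over 19 alternatives the Cyp2c38 difference ran from -0.12 to 0.70. Ugt1a1, the enzyme that conjugates bilirubin, had 254, 42.6, 27.9 and 34.2 CPM in KO livers, against 250, 261, 296 and 332 CPM in WT livers. KO replicate 1 sat at the WT level and the other 3 KO livers far below every WT liver. The log2 difference was -1.67 (SE 0.70, adjusted p = 0.166) with KO replicate 1 and -3.02 (adjusted p = 0.0134) without it, and adjusted p ran from 0.0134 to 0.511 over 19 alternatives. Its exons are shared with other Ugt1a transcripts, so the split of reads among them is uncertain.

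The acute phase list, blood proteins that the liver makes in inflammation, had 4 higher and 2 lower of 24 (median 0.17). It was dominated by 1 mouse: Saa1 had 87.6, 4376, 70.7 and 121 CPM in KO livers, against 95.8, 55.9, 45.3 and 35 CPM in WT livers, and Saa2 had 53.6, 2913, 33.5 and 50.7 CPM in KO livers, against 41.1, 28.6, 23.7 and 13.8 CPM in WT livers. KO replicate 2 was the high liver in both, and without it the log2 differences were 0.66 for Saa1 and 0.76 for Saa2, against 4.33 and 4.83 with it (edgeR adjusted p = 0.120 and 0.116). The 2 genes are near-identical and their reads may be shared. Crp had a difference of 0.80, and 0.24 with the GC trend removed.
Of 17 heat shock and temperature genes, 5 were higher and 0 lower at an unadjusted p under 0.05 (median 0.21). With the GC trend removed 2 were higher and 0 lower at that level, against 10.9% and 9.48% of all genes (median 0.08). Hspe1, a mitochondrial chaperonin subunit, had 161, 274, 347 and 254 CPM in KO livers, against 147, 150, 155 and 135 CPM in WT livers (log2 difference 0.82, SE 0.26, adjusted p = 0.122), and Hsp90aa1 (0.94) and Chordc1 (0.71) overlapped. The Chordc1 difference ran from -0.07 to 0.88 over 19 alternatives. Of 22 unfolded protein and integrated stress genes 1 was higher and 2 lower (median -0.22): Hsp90b1 (0.48; 0.05 with the GC trend removed), Hyou1 (-0.98) and Ppp1r15a (-0.94). Of 13 NRF2 and oxidative stress genes 2 were higher and 1 lower (median -0.06), namely Prdx1 (0.75), Gclm (0.47) and Hmox1 (-0.97). With the GC trend removed 0 of the 13 were higher and 1 lower (median 0.01). The Gclm difference ran from -0.01 to 0.63 over 19 alternatives. Of 16 actin and SRF or YAP target genes 2 were lower (median -0.38; -0.21 with the GC trend removed), Flna (-0.91), with no overlap of the groups, and Vcl (-0.39), and Srf itself had a difference of -0.87. Of 20 cell cycle genes 2 were higher, Tyms (0.60) and Ccne2 (1.14), and 1 lower, Mcm3 (-0.61; list median 0.14). Their summed level was 115 to 167 CPM in KO livers and 98.5 to 124 CPM in WT livers.

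The libraries carried the RNA of every cell type of the liver, and fewer cells of a type cannot be told apart from less RNA per cell. The hepatocyte markers summed to 36253 to 50486 CPM in KO livers and 47131 to 51700 CPM in WT livers, and 1 of 10 was lower at an unadjusted p under 0.05. That was Hnf4a, the master transcription factor of hepatocytes, with 506, 432, 396 and 414 CPM in KO livers, against 717, 618, 558 and 555 CPM in WT livers (log2 difference -0.49, SE 0.22, edgeR adjusted p = 0.183; -0.21 with the GC trend removed). Ttr (-0.42) and Apob (0.52) overlapped.
Of 10 markers of the sinusoidal endothelium, the fenestrated lining of the liver's capillaries, 4 were lower and 0 higher (median -0.41). They were Pecam1, Lyve1, Stab1 and Kdr. Without KO replicate 1 the median was -0.72, and Pecam1, Stab1, Kdr and Stab2 were called lower, against 12.4% of all genes. With the GC trend removed as well, 2 of the 10 were called lower, against 6.29% of all genes. Pecam1 had 12.5, 5.96, 5.18 and 3.94 CPM in KO livers, against 12.2, 13.3, 13.2 and 18.4 CPM in WT livers (-1.05, SE 0.34, adjusted p = 0.125). Stab1, a scavenger receptor, had 38.7, 16.0, 15.8 and 16.0 CPM in KO livers, against 48.2, 41.4, 26.3 and 38.0 CPM in WT livers (-0.83, SE 0.33). Lyve1 (-1.34) had 2.16 to 4.02 CPM in KO livers and 4.07 to 12.5 CPM in WT livers, so the groups only just did not overlap. Clec4g, another marker of these cells, lay the other way, with 43.8 to 86.9 CPM in KO livers and 33.1 to 41.1 CPM in WT livers. The list summed to 167 to 242 CPM in KO livers and 227 to 261 CPM in WT livers.
Of 6 cholangiocyte markers tested, 1 was lower, Krt7 at -1.11 (median -0.78, with Krt19 at -1.06 and Sox9 at -0.60). Of 5 mesothelium markers tested, 0 passed an unadjusted p of 0.05 (median -0.52, with Wt1 at -1.10, Msln at -0.81 and Lrrn4 at -0.52). Stellate cell and fibroblast markers (12 tested) had 0 past that level and a median of -0.22, with Des at -0.48, Rgs5 at 0.66 and Lox at 0.82. Kupffer cell markers (15 tested) also had 0 and a median of 0.07, with Cd68 at -0.60, Lyz2 at 0.50 and Csf1r at -0.41. Lymphocyte markers (13 tested) had 1 higher, Ms4a1 (1.72), and a median of 0.35, with Cd8a at 1.58 and Cd3d at 0.69, and Ms4a1 at most at 4.17 CPM. Neutrophil markers (10 tested) had 0 and a median of -0.26, with Mpo at -1.59, Ltf at -1.30 and S100a8 at 0.60, and their sum was 3.12 to 31.5 CPM in KO livers and 2.24 to 14.7 CPM in WT livers. Erythroid markers (5 tested) had 1 higher, Hbb-b2 (1.69), and a median of 0.48, with Hbb-b1 at 1.39 and Alas2 at 0.48; KO replicate 2, the liver with high Saa1, had the most of both globins.
The defining adipocyte genes Adipoq, Lep, Plin1, Cfd and Retn were at or near 0 in all 8 livers (at most 0.164 CPM). The 4 adipocyte list genes tested were ones that liver also expresses (median 0.08; Adrb3 -0.64, Fabp4 0.15 and Pparg 0.07). Of 13 exocrine pancreas genes 9 were at 0 in all 8 livers and 2 were tested, Cela1 (0.65) and Cela2a (1.12; list median 0.88).

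**Figure D5:**
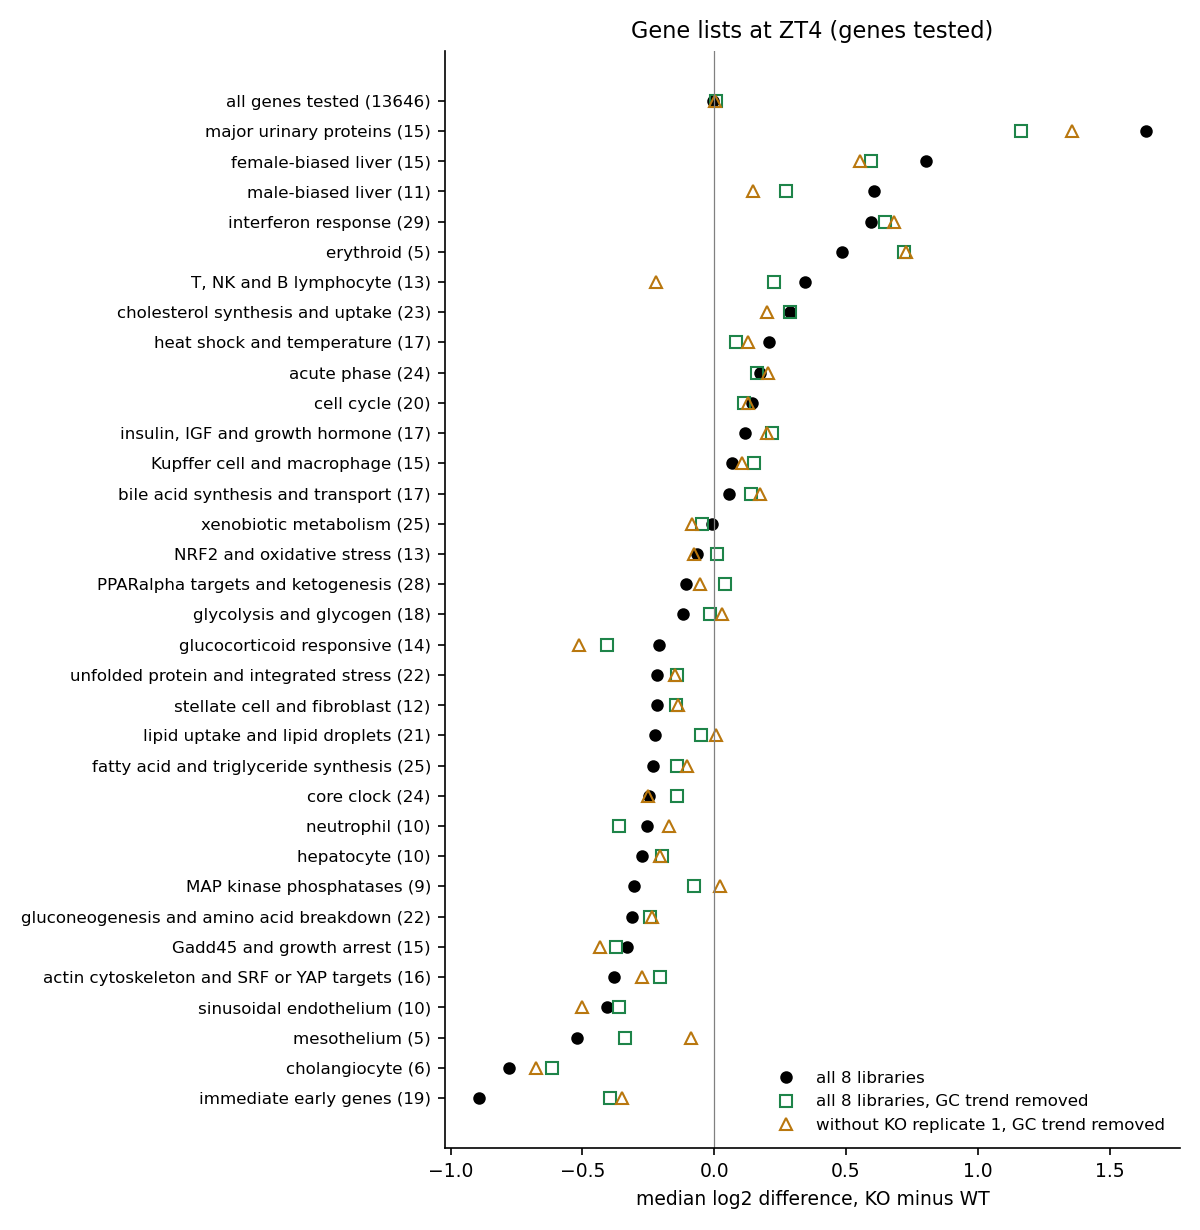
Median KO minus WT log2 difference at ZT4 over the genes tested of each list (number in brackets), with all 8 libraries (black points), with the GC trend of each library removed (green squares), and with KO replicate 1 left out as well (orange triangles); the top line is all genes tested. Interferon response has medians of 0.59, 0.65 and 0.68 in the 3 settings, whereas the median of immediate early genes moves to -0.39 with the GC trend removed.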

How the data were processed

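Liver polyA RNA of 48 mice was sequenced with a stranded TruSeq kit and 13 PCR cycles, with library construction spread over 3 days, per the labels' protocols; which library was made on which day is not given in the sources used here. Per the submitters' processing notes, CASAVA and STAR 2.4.1d were used with genome build mm9. The authors deposited 1 table of whole-number read counts per gene. Its headers carry the gene symbols and positions on mm9, and its name says that the counts are of the sense strand. How reads were counted, with which annotation, and whether depth was equalised are not given in the sources used here. Totals without Alb were nearly equal between libraries. The Alb values were multiples of 1311.61 reads, so Alb was left out of library sizes and tests.

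Tests used edgeR 4.0.16 under R 4.3.3 (filterByExpr, TMM factors 0.937 to 1.08 over the 8 ZT4 libraries, quasi-likelihood fit of 12 group means, glmQLFTest, Benjamini-Hochberg over all 13646 genes, threshold 0.05). The contrasts were KO minus WT at ZT4, and that difference minus its mean at the other 5 times. CPM used the TMM-scaled library sizes, and log2 CPM a prior count of 2. The spread of each gene was estimated over all groups. GC content came from the longest GRCm38 transcript of each gene (13316 genes, 97.6%), and the GC trend was removed by lowess offsets per library (span 0.3). The GC slope and body weight were compared by exact permutation tests. Alternatives were the DESeq2 size factors, DESeq2 1.42.0, no filter on low counts, the ZT4 libraries alone, the replicate number as a block, body weight as a covariate, the GC trend removed, and each ZT4 library left out; 2 more were chosen after seeing the data (KO replicate 1 left out together with GC removal, and the GC slope as a covariate). The fit was tested on simulated data with known changes. The simulation had no GC trend, no difference between times and no library set apart, so it could not show how the fit handles these.

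The named genes were Arntl, every gene past the threshold, the 20 with the smallest p among those whose mean log2 CPM was 0 or more, every core clock gene, up to 4 called or otherwise 3 smallest-p members of each of 24 gene groups and 11 cell type lists, and genes past the test against other times; a few further list members were named after their values were seen. A few list members are not reported here by name; the counts, medians and sums of their lists include them. Of 594 list entries 591 were found in the table. The members and lists were chosen with earlier results of these data known. Promoters were RefSeq windows of GRCm38.p6, read 250 bases upstream of the start. None of the 28 pairs of ZT4 libraries agreed within sampling noise. Intervals and floors cover counting error only.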

Additional observations from a re-analysis of the deposited data

Results flagged for a closer look

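Within the 4 KO or 4 WT libraries at ZT4, 1 library stood apart in 16 of the 278 groups examined for the 139 named genes (5.76%): the gap between the extreme library and its nearest neighbour, as a share of the range of the group on the log2 CPM scale, exceeded 0.829. For independent normal values such a gap arises in about 1 of 20 groups. The groups here share the same mice, and many genes were named for a small p in them. That rate therefore does not apply to them, and whether the share differs from chance was not tested. KO replicate 1 was the one apart in 7 of them. It was high for Map4k4 (gap share 0.893; 15.2 CPM against 10.4 to 10.9 CPM in the other KO livers), Bhlhe40 (0.858; 62.1 CPM against 30.6 to 33.9 CPM), Stab1 (0.983; 38.7 CPM against 15.8 to 16.0 CPM) and Cd68 (0.858; 9.51 CPM against 2.14 to 2.66 CPM). It was low for Metap1d (0.866; 87.8 CPM against 151 to 165 CPM), Fabp4 (0.860; 3.74 CPM against 7.81 to 8.79 CPM) and Cela1 (0.905; 7.72 CPM against 12.7 to 13.4 CPM).

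KO replicate 2 was high for Saa1 (0.871; 4376 CPM against 70.7 to 121 CPM), Saa2 (0.895; 2913 CPM against 33.5 to 53.6 CPM) and Pfkfb1 (0.871; 57.0 CPM against 34.1 to 36.4 CPM), and low for Dbp (0.896; 23.2 CPM against 67.8 to 76.8 CPM). Among the WT livers, replicate 1 was low for Hsp90aa1 (0.963; 78.7 CPM against 101 to 102 CPM) and replicate 2 for Gclm (0.829; 169 CPM against 183 to 186 CPM). Replicate 3 was low for Timeless (0.935; 1.047 CPM against 2.45 to 2.60 CPM) and high for Lipc (0.831; 305 CPM against 206 to 220 CPM), and replicate 4 was high for Lox (0.966; 0.287 CPM against 0.15 to 0.153 CPM, which is a handful of counts).

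Npas2 differed in its KO minus WT difference between ZT4 (-1.28) and the mean of the other 5 times (2.26), with an edgeR adjusted p of 0.0114 for the test of that difference.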

How the results depend on the processing

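The count of 5 genes at ZT4 was 5 with DESeq2 size factors and 4 with the GC trend removed. It was 192 with DESeq2 (114 higher, 78 lower), 2 with no filter on low counts, 0 with the ZT4 libraries alone (2384 at an unadjusted p under 0.05), 1 with body weight as a covariate and 0 with the GC slope as a covariate (1508 unadjusted). Without KO replicate 1 and with the GC trend removed it was 1628. Leaving out 1 library gave 0 to 3354 genes. Besides the GC values given above, the cause of these shifts was not tested. For ZT4 against the other times, the count of 1 was 4 with DESeq2, 28 without KO replicate 1 and with the GC trend removed, and 0 to 1 with 1 library left out.

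Deviations from the group means of same-numbered KO and WT libraries correlated at 0.60, 0.05, 0.55 and 0.50 over 9737 genes, and 1 of the 4 was not above 0.1. Same-numbered mice of ZT4 shared an age, but the labels do not say that the number marks a litter or batch. The numbers were not taken as pairs in the main fit or in the permutation tests. By these deviations every KO library correlated best with the WT library of its own number, and WT replicate 2 with KO replicate 1. The lead was small for KO replicate 2 (0.047 against 0.028 with WT replicate 4) and KO replicate 4 (0.498 against 0.496 with WT replicate 3). By log2 CPM, KO replicates 2 and 4 correlated best with WT replicate 3 (0.971 and 0.959, against 0.955 and 0.956 with their own numbers). The GC slope of KO minus that of the same-numbered WT was -0.04, -0.66, -0.79 and -0.65. With the replicate number as a block the count was 2 over 48 libraries, 726 over the ZT4 libraries alone (241 higher, 485 lower) and 7 with the GC trend also removed. The block over 48 libraries did not always join mice of the same age. At ZT16 replicate 1 was 38 weeks old in KO and 93 weeks in WT, and WT replicates 4 and 5 had no KO of their number. The Arntl difference under the block was -1.09 over the ZT4 libraries alone (adjusted p = 0.0455). No block was run for the test against the other times.

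Arntl was -1.33 without KO replicate 1 and with the GC trend removed (edgeR adjusted p = 0.0342, against 0.0302 to 0.485 over all its alternatives), and -1.33 to -0.81 with 1 library left out. The GC slope difference was -0.80 to -0.38 with 1 library left out. Body weight differences kept their sign, at 1.18 to 2.49 g. No result changed sign and call together. For single genes, 2360 values under an alternative kept their side of the threshold, 192 newly passed and 54 no longer passed; list medians moved by more than 1 SD between the KO livers in 18 cases. Tmem171 and other genes with few counts gave no value in the fits of the ZT4 libraries alone. At the depth of these libraries, genes below 1 CPM rest on a few counts.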
